A study of Homo sapiens with 12 samples.

Results

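The genes described here encode the chains of laminins and of integrins. They were chosen by symbol: every gene named LAMA, LAMB or LAMC with a number, ITGA with a number or letter, or ITGB with a number. Described here are 37 such genes, among the 60624 genes shared by both deposited count tables. Bulk RNA was sequenced from ePP-derived islets, which are islet-like cells made in culture from expandable pancreatic progenitors (ePPs). The progenitors came from MEL1, a line of human embryonic stem cells, and the cells were taken after 8 days in R6 medium. The first pair of groups was NKX2-2 knockout (KO), titled N2-KO, and its wild type (WT), with 3 libraries each. The second pair was CLEC16A KO, titled C16-KO, and its own WT, again with 3 libraries each; the deposited tables spell out which genes N2 and C16 stand for. NKX2-2 is a homeodomain transcription factor of islet cells, and CLEC16A is a regulator of mitophagy. All groups shared the same culture: progenitors grown on feeder cells with B27, EGF, bFGF, 616452 and I-BET151, then R6 medium with forskolin, T3, Compound E, LDN-193189, vitamin C, 616452, heparin, zinc sulfate, BSA and B27. The titles name no edited clone and do not say whether replicates came from separate cultures, so clone and knockout cannot be told apart and p-values measure the spread between libraries, which may be technical.

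A laminin is a trimer of an alpha (LAMA), a beta (LAMB) and a gamma (LAMC) chain, secreted into the basement membrane, the sheet on which epithelia, vessels and muscle rest. An integrin is a pair of an alpha (ITGA) and a beta (ITGB) chain that spans the cell membrane and binds laminins, collagens, fibronectin or receptors on other cells. LAMA3 and LAMB3 belong to a laminin known for anchoring epithelia through the ITGA6 and ITGB4 pair, while LAMA4 is known from the basement membranes of vessels and mesenchyme. In the pancreas, epithelial and islet cells contact laminins chiefly through integrins that hold ITGB1.

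Library facts that bear on these genes were as follows. NKX2-2 transcripts were at 91.9, 68.0 and 68.3 CPM (counts scaled to library size, the unit used below) in NKX2-2 KO libraries, against 95.4, 96.6 and 93.4 CPM in WT libraries, and CLEC16A transcripts at 35.4, 38.0 and 36.8 CPM in CLEC16A KO libraries, against 36.2, 30.1 and 30.8 CPM in WT libraries. Levels summed over a gene do not check an edited allele, so KO and WT below mean the libraries so labelled. The NKX2-2 libraries held 16157481 to 20649976 counts each and the CLEC16A libraries 31364272 to 33763795, so 3 counts amount to 0.144 to 0.181 CPM and to 0.0860 to 0.0970 CPM. In both NKX2-2 groups the library numbered 3 stood apart, with relatively fewer reads from long transcripts. The median log2 deviation of transcripts of at least 8000 bases minus that of transcripts of at most 2000 bases was 0.18, 0.13 and -0.31 in NKX2-2 KO libraries and 0.21, 0.13 and -0.35 in WT libraries, against -0.10 to 0.07 in the CLEC16A experiment. The laminin alpha chains other than LAMA4, whose longest transcript has 6547 bases, are among the long transcripts. Results that turn on those libraries are therefore given without them too. The 12 listed islet endocrine markers, such as INS and CHGA, were all detected in both experiments, none of them being at 0 in every library. No laminin or integrin gene was at least 4 times shorter of counts per TPM in the NKX2-2 tables than in the CLEC16A tables. In bulk samples, fewer cells of a type and less RNA per cell cannot be told apart.

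Because LAMB3 and LAMA3, chains of an epithelial laminin, rose strongly in the CLEC16A experiment, the starts of their genes are shown first. LAMB3 (ENSG00000196878.15, chromosome 1, 209614870 to 209652466, minus strand, GRCh38) has a downstream start annotated by RefSeq inside the gene, and LAMA3 (ENSG00000053747.16, chromosome 18, 23689443 to 23956222, plus strand) has one for its shorter transcript. The sequences are RefSeq windows of the 250 bases before each start, in GRCh38.p14, written 5′ to 3′ on the gene's strand. The LAMB3 windows were cut to bases outside annotated exons. The LAMA3 window was instead cut to 30 bases around each match, without regard to exons. Capitals mark matches to TGANTCA, the letters bound by AP-1, a dimer of FOS and JUN proteins.
LAMB3 downstream start, chr1:209651395-209651624, minus strand: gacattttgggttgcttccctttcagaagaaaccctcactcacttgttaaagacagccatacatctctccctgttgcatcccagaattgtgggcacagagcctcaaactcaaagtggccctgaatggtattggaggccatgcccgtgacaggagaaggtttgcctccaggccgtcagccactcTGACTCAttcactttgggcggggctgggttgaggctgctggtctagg
LAMB3 outermost start, chr1:209652467-209652675, minus strand: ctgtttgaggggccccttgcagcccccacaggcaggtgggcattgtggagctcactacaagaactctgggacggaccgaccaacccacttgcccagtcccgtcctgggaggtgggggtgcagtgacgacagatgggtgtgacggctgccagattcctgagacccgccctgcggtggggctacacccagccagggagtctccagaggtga
LAMA3 first match, chr18:23872884-23872913, plus strand: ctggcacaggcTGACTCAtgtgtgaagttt
LAMA3 second match, chr18:23872940-23872969, plus strand: ccttcctcaccTGAGTCAggcaggcccggg
The LAMA3 matches began 125 and 69 bases before the start. Both lie outside the window's longest stretch free of annotated exons (70 bases, chr18:23872770-23872839), which holds no match. The downstream LAMB3 window holds 1 match. The outermost window and another LAMB3 window that overlaps it, not shown, hold none. Over both strands, 2 of the 33 windows found for 26 of the 37 genes held TGANTCA, those of LAMA3 and LAMB3. That share was near the 6.57% of all 35116 windows of the same length. GGAATG, bound by TEAD factors, was in 4 of the 33 windows (ITGA10, ITGA5, ITGB1 and LAMA2), against 11.9% of all windows. TNAAGTG, bound by NKX2-2, was likewise in 4 (ITGA1, ITGA6, LAMB2 and LAMB4), against 8.73%. A match is a stretch of letters and says nothing of whether a factor was bound there.

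In the NKX2-2 comparison, which asked what differs in islet-like cells labelled NKX2-2 KO, the collagen, nephronectin and tenascin receptor chains ITGA11, ITGA8 and ITGA9 and the laminin chain LAMA4 rose 2.91-fold to 4.15-fold. The epithelial chains ITGB6 and LAMB3 fell 1.74-fold and 1.45-fold. Of the 37 genes, 33 passed the filter on low counts. Among these, 9 rose and 5 fell (edgeR quasi-likelihood test, adjusted p under 0.05), while 19 missed that threshold, so that 42.4% were called, where 33.4% of all 17436 genes tested were called, 16.6% higher and 16.8% lower. At least 2-fold, 6 rose and 1 fell, where 7.28% of all genes rose and 5.53% fell. The KO and WT libraries did not overlap for 17 of the 33 (51.5%), where 45.5% of all genes tested did not overlap. The 8 genes classed as epithelial chains were LAMA3, LAMA5, LAMB3, ITGA2, ITGA3, ITGA6, ITGB4 and ITGB6. LAMA1, of embryonic epithelial basement membranes, was classed with the other laminin chains. By chain, 0 of the 8 epithelial chains rose and 3 fell, with a median log2 fold change of -0.20. Of the 10 stromal and vascular chains, 5 rose and 0 fell, with a median of 0.86. Of the 7 shared chains 2 rose and 1 fell, with a median of 0.02. The median of all genes tested was 0.03. Without both libraries numbered 3, a fit added after seeing the data, 8 of the family rose and 6 fell, and without WT replicate 1 or WT replicate 2 alone, 3 fell.

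The same question was put to the libraries labelled CLEC16A KO. LAMB3 and LAMA3 rose 9.76-fold and 4.44-fold, and their receptor chains ITGA3, ITGB4 and ITGA6 rose 3.30-fold, 2.86-fold and 1.67-fold. ITGA11 and ITGA8 fell 3.74-fold and 2.36-fold, while LAMA4 rose 3.09-fold. Of 34 genes tested, 18 rose and 5 fell, while 11 missed the threshold, so that 67.6% were called, where 45.0% of all 19958 genes tested were called, 23.7% higher and 21.3% lower. At least 2-fold, 11 rose and 3 fell, where 8.74% of all genes rose and 5.16% fell. The groups did not overlap for 24 of the 34 (70.6%), where 53.8% of all genes did not overlap. All 8 genes classed as epithelial chains were called higher, with a median log2 fold change of 1.62, although LAMA5 was lower on the TPM scale. LAMA1, which lies outside that class, did not pass (log2 fold change 0.01, adjusted p = 0.938). Of the 10 stromal and vascular chains, 4 rose and 3 fell, with a median of 0.12. Of the 7 shared chains 5 rose and 0 fell, with a median of 0.85, and the median of all genes tested was -0.01. Without both libraries numbered 3, 16 of the family rose and 5 fell.

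**Figure D1:**
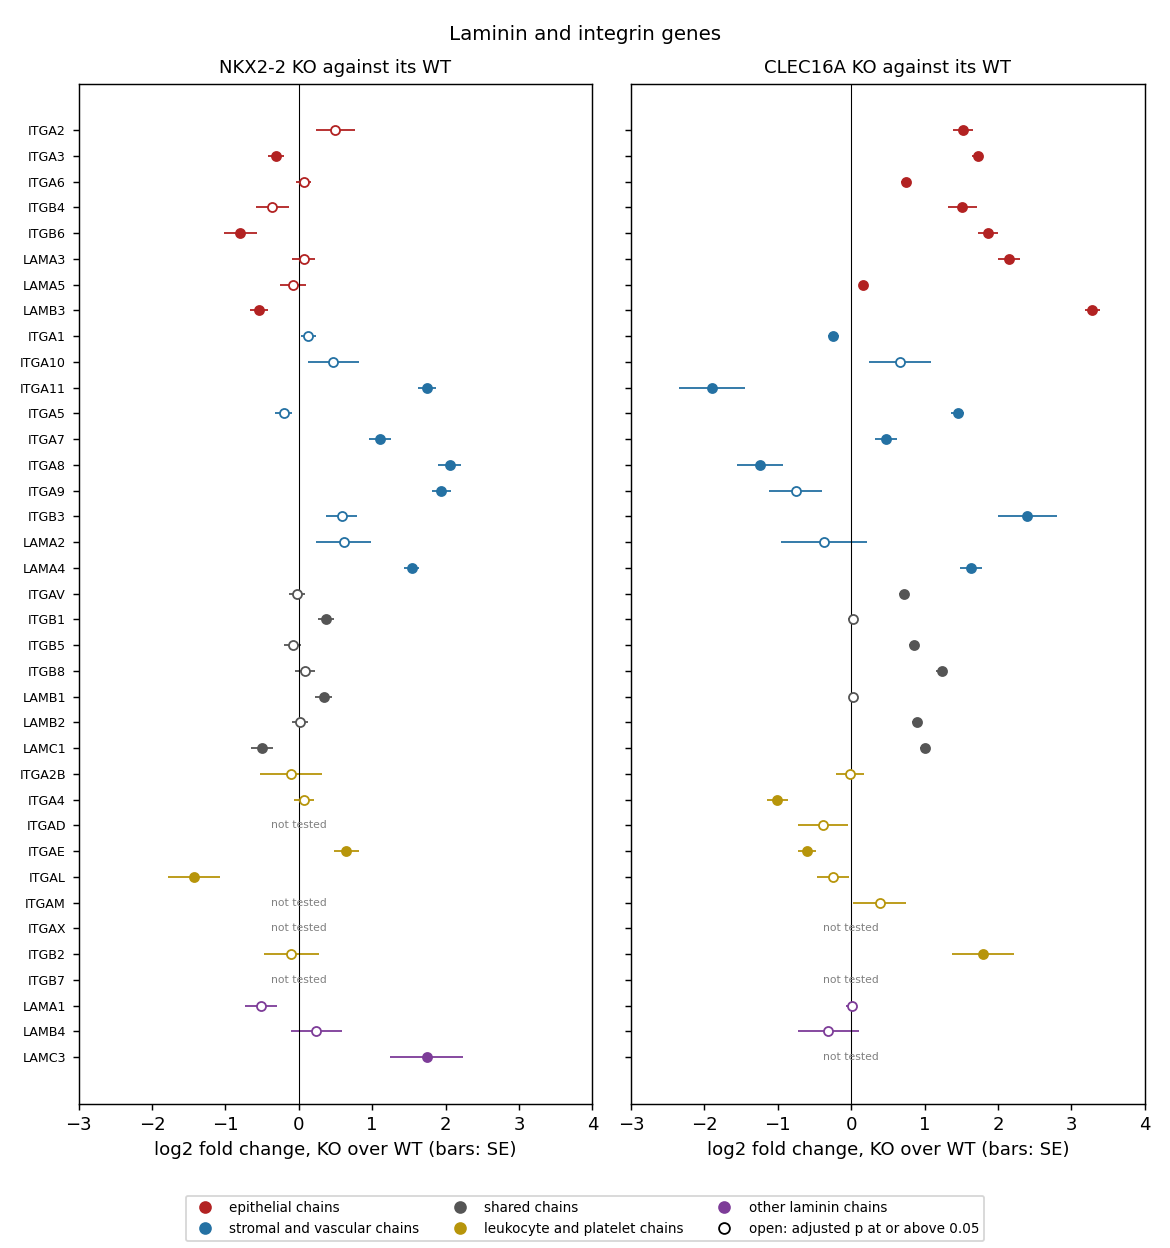
Log2 fold change of KO over WT (x axis) for the laminin and integrin genes tested, 33 with NKX2-2 KO and 34 with CLEC16A KO (y axis, all 37 genes, grouped and coloured by chain class, with the others marked as not tested), in the NKX2-2 experiment on the left and the CLEC16A experiment on the right, with bars for the standard error and open points where the adjusted p was at or above 0.05. The epithelial chains sit between 0.17 and 3.29 in the CLEC16A panel and between -0.80 and 0.49 in the NKX2-2 panel.

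LAMB3, the beta chain of an epithelial laminin, was at 142, 136 and 161 CPM in CLEC16A KO libraries, against 15.9, 16.6 and 12.4 CPM in WT libraries. The lowest KO library was far above the highest WT library. The change was 9.76-fold (log2 fold change 3.29, SE 0.10, adjusted p = 5.63e-16), the largest of the family in either experiment. In the NKX2-2 experiment LAMB3 was at 18.1, 16.2 and 15.2 CPM in NKX2-2 KO libraries, against 21.4, 25.9 and 24.7 CPM in WT libraries. There every KO library was below every WT library, and the fall was 1.45-fold (log2 fold change -0.54, SE 0.13, adjusted p = 0.00504). Of the alternatives run, limma on log2(TPM + 1) without a filter was the one under which it was lost, at adjusted p = 0.0509.

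LAMA3, the alpha chain of the same laminin, was at 13.4, 14.2 and 17.2 CPM in CLEC16A KO libraries, against 2.98, 3.56 and 3.55 CPM in WT libraries. Again no KO library came near a WT library, and the rise was 4.44-fold (log2 fold change 2.15, SE 0.15, adjusted p = 9.22e-11). In the NKX2-2 experiment LAMA3 was at 7.22, 8.60 and 8.37 CPM in NKX2-2 KO libraries, against 8.31, 8.14 and 6.66 CPM in WT libraries, with overlapping groups (log2 fold change 0.07, SE 0.16, adjusted p = 0.782, 95% interval -0.28 to 0.41). So LAMB3 passed the test for a fall there and LAMA3 did not. On the TPM scale, which corrects for transcript length, the CLEC16A KO means were 69.3 ± 6.28 for LAMB3 and 4.75 ± 0.514 for LAMA3 (SD, n = 3), against WT means of 7.69 ± 0.988 and 0.646 ± 0.0264. LAMA3 was thus scarcer per length than LAMB3 in either group.

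Among the other alpha chains, LAMA4 (ENSG00000112769.20, chromosome 6, 112108760 to 112254939, minus strand), the alpha chain of vascular and mesenchymal basement membranes, rose in both experiments. It was at 155, 172 and 156 CPM in NKX2-2 KO libraries, against 58.6, 56.6 and 50.9 CPM in WT libraries. The rise was 2.91-fold (log2 fold change 1.54, SE 0.10, adjusted p = 2.06e-07). In the other experiment it was at 12.6, 13.4 and 15.6 CPM in CLEC16A KO libraries, against 4.04, 5.07 and 4.34 CPM in WT libraries, a 3.09-fold rise (log2 fold change 1.63, SE 0.15, adjusted p = 5.07e-09). Neither pair of groups overlapped. The effects did not differ beyond their error. The difference of effects was -0.08 (SE 0.15, adjusted p = 0.722), with a 95% interval of -0.39 to 0.23 on the log2 scale.

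LAMA1 and LAMA5, the alpha chains of embryonic and of mature epithelial basement membranes, carried most of the alpha chain TPM. LAMA1 (ENSG00000101680.15, chromosome 18, 6941744 to 7117814, minus strand) was at 319, 254 and 169.9 CPM in NKX2-2 KO libraries, against 418, 388 and 256 CPM in WT libraries. In either group the library numbered 3 was the lowest, and the groups overlapped (log2 fold change -0.52, SE 0.22, adjusted p = 0.0867). Of 18 alternatives run, 13 left it uncalled, and the following 5 called it. Without both libraries numbered 3 the log2 fold change was -0.49 (adjusted p = 0.00205), without KO replicate 1 it was -0.75 (adjusted p = 0.0254), without WT replicate 3 it was -0.70 (adjusted p = 0.0140), without a count filter it was -0.56 (adjusted p = 0.000604), and with a replicate block it was -0.53 (adjusted p = 6.90e-07). In the CLEC16A experiment LAMA1 was at 397, 344 and 320.1 CPM in KO and 358, 331 and 366 CPM in WT libraries, with a log2 fold change of 0.01 (adjusted p = 0.938, 95% interval -0.14 to 0.16). Exons of LAMA1 share 1641 bases with the antisense gene AP002409.1, and as the use of strand is not given, reads there cannot be assigned to either.

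LAMA5 was at 331, 352 and 325 CPM in CLEC16A KO libraries, against 301, 289.6 and 307 CPM in WT libraries. The KO libraries were all above the WT libraries, by a small margin (log2 fold change 0.17, SE 0.06, adjusted p = 0.032). Leaving out KO replicate 1, KO replicate 2 or any single WT library ended this call (adjusted p of 0.0639 to 0.129), as did upper-quartile scaling (adjusted p = 0.232). The direction turned on the TPM scale, with means of 71.7 ± 4.75 TPM in CLEC16A KO and 77.6 ± 0.290 TPM in WT libraries (SD, n = 3 each) and a log2 fold change of -0.11 in limma on log2(TPM + 1). With NKX2-2 knockout the groups overlapped (log2 fold change -0.08, SE 0.17, adjusted p = 0.751). LAMA2, the alpha chain of muscle and nerve, was near the limit of detection at 1.02, 1.40 and 0.865 CPM in NKX2-2 KO libraries, against 0.913, 0.505 and 0.734 CPM in WT libraries, and its groups overlapped in both experiments (log2 fold changes 0.61 with NKX2-2 KO and -0.37 with CLEC16A KO, adjusted p = 0.231 and 0.646).

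Of the broadly used beta and gamma chains, LAMC1 (ENSG00000135862.6, chromosome 1, 183023460 to 183145592, plus strand), the gamma chain of most laminins, moved in opposite directions. It was at 865, 794 and 897 CPM in CLEC16A KO libraries, against 445, 392 and 441 CPM in WT libraries. The groups were well apart and the rise was 2.00-fold (log2 fold change 1.00, SE 0.07, adjusted p = 3.77e-11). In the NKX2-2 experiment it was at 499.6, 515 and 372 CPM in NKX2-2 KO libraries, against 741, 693 and 531 CPM in WT libraries. There the highest KO library was just under the WT library numbered 3, and the fall was 1.42-fold (log2 fold change -0.50, SE 0.15, adjusted p = 0.0214). It missed the threshold without WT replicate 1 (adjusted p = 0.0927), without WT replicate 2 (adjusted p = 0.0642) and on log2(TPM + 1) in limma (adjusted p = 0.0637).

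LAMB1, the common beta chain, was at 1076, 971 and 903 CPM in NKX2-2 KO libraries, against 829, 789 and 717 CPM in WT libraries. All KO libraries were above the WT libraries by a modest margin (log2 fold change 0.34, SE 0.11, adjusted p = 0.0368), a call lost in 5 of the 6 fits that left out a single library (adjusted p up to 0.120). In the CLEC16A experiment LAMB1 was at 539.6, 509 and 515 CPM in KO and 526, 496 and 514 CPM in WT libraries, which overlapped, and the log2 fold change was 0.03 (95% interval -0.10 to 0.15). LAMB2, its counterpart in muscle and vessels, was at 427, 401 and 447 CPM in CLEC16A KO libraries, against 233, 225 and 228 CPM in WT libraries, a 1.86-fold rise (log2 fold change 0.89, SE 0.06, adjusted p = 6.33e-11). With NKX2-2 KO its log2 fold change was 0.02 (95% interval -0.21 to 0.24), with overlapping groups.

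The scarce chains LAMB4 and LAMC3 were close to the detection limit. LAMC3 was at 1.08, 1.05 and 1.15 CPM in NKX2-2 KO libraries, against 0.384, 0.505 and 0.0564 CPM in WT libraries, which rests on 18, 21 and 20 counts in KO libraries and on 8, 10 and 1 in WT libraries (log2 fold change 1.74, SE 0.50, adjusted p = 0.0172). Neither the fit without KO replicate 2 (adjusted p = 0.0517) nor that without both libraries numbered 3 (adjusted p = 0.0685) called it. LAMC3 was not tested in the CLEC16A experiment, where no library exceeded 0.344 CPM. LAMB4, which lies 20.3 kb from LAMB1, ran from 0.435 to 2.08 CPM over the 12 libraries, with overlapping groups in both experiments (log2 fold changes 0.24 and -0.31, adjusted p = 0.628 and 0.585).

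The makeup of the laminin transcripts was read from TPM. Each share below is that of a gene in the summed TPM of its own chain type in 1 library, and is described without a test. In the CLEC16A experiment LAMB3 held 15.9, 15.9 and 17.6% of beta chain TPM in KO libraries and 2.52, 2.67 and 2.13% in WT libraries. Among alpha chains the groups overlapped for the leading ones: LAMA1 held 50.5% ± 2.41 in KO and 54.5% ± 1.64 in WT libraries, and LAMA5 44.0% ± 2.32 and 44.1% ± 1.50 (mean ± SD, n = 3 each). LAMA3 and LAMA4 were minor alpha chains in both CLEC16A groups, with larger shares in every KO library than in any WT library. LAMA3 was at 2.93% ± 0.517 in KO and 0.368% ± 0.0232 in WT libraries, and LAMA4 at 2.55% ± 0.316 in KO and 0.799% ± 0.104 in WT libraries.

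With NKX2-2 KO LAMA4 held 28.1, 36.8 and 42.4% of alpha chain TPM in KO libraries, against 12.8, 12.1 and 16.7% in WT libraries. LAMA1 held 45.2, 40.5 and 35.1% in KO libraries and 63.4, 60.5 and 59.5% in WT libraries. Neither pair of ranges overlapped, while LAMA5 held 22.5% ± 2.72 in KO and 23.5% ± 1.80 in WT libraries. LAMB3 held 1.58% ± 0.0166 of beta chain TPM in KO and 2.93% ± 0.397 in WT libraries (mean ± SD, n = 3 each). The deposited TPM values add up to 41.4% to 47.2% of the full total in NKX2-2 libraries. This cancels in a share only if it is the same factor for every gene of a library, which was not tested. Transcript length need not cancel either: the longest LAMA4 transcript has 6547 bases and that of LAMA1 has 10374. In KO and in WT alike, the library numbered 3, with relatively fewer reads from long transcripts, had the highest LAMA4 and the lowest LAMA1 share. The part of this in the shares was not tested.

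**Figure D2:**
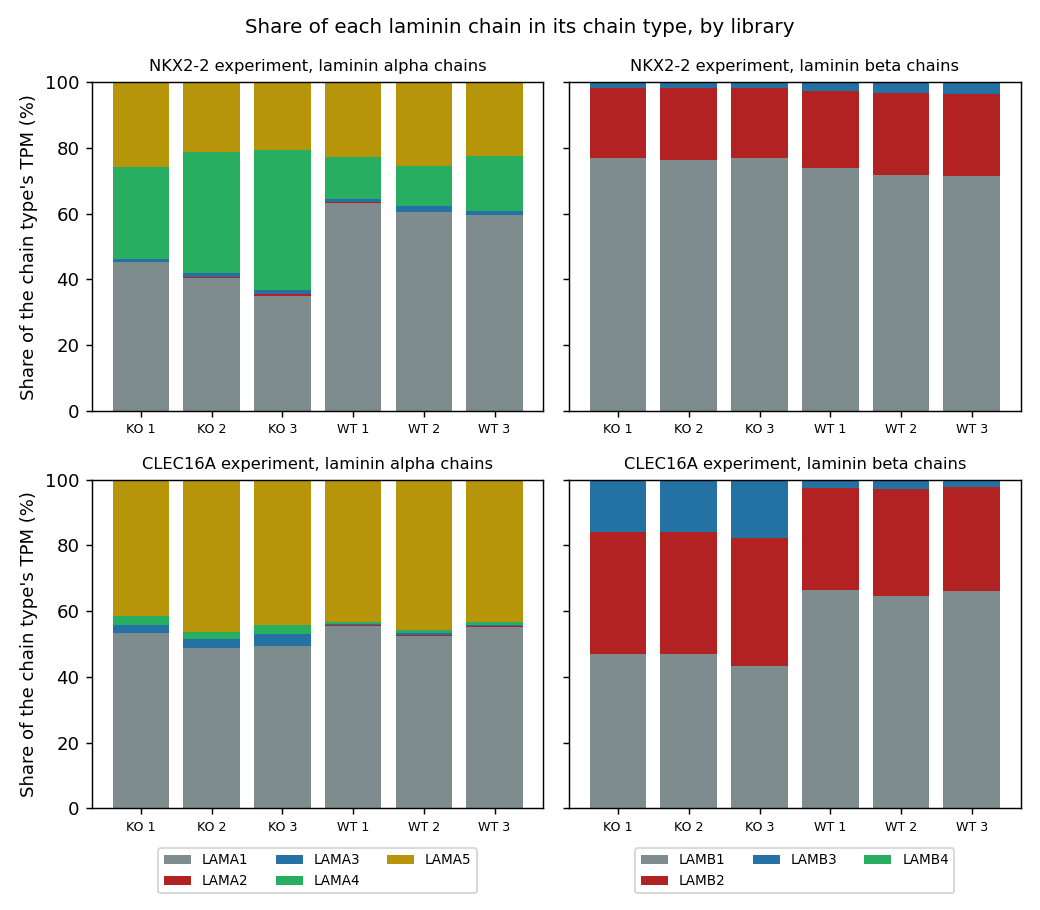
Share of each laminin gene in the summed TPM of its chain type (y axis, %), by library (x axis, KO left of WT), with alpha chains on the left and beta chains on the right, the NKX2-2 experiment above and the CLEC16A experiment below. LAMA4 takes 28.1% to 42.4% of alpha chain TPM in NKX2-2 KO libraries, and LAMB3 takes 15.9% to 17.6% of beta chain TPM in CLEC16A KO libraries.

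Among the receptors, all 5 integrin chains of the epithelial class rose with CLEC16A KO. ITGA3 (ENSG00000005884.18, chromosome 17, 50055968 to 50090481, plus strand), which with ITGB1 binds the epithelial laminins, was at 101, 101 and 106 CPM in CLEC16A KO libraries, against 29.4, 30.4 and 33.6 CPM in WT libraries. Each KO library was far above every WT library and the rise was 3.30-fold (log2 fold change 1.72, SE 0.07, adjusted p = 1.46e-14). ITGB6 (ENSG00000115221.12, chromosome 2, 160099666 to 160200313, minus strand), the partner of ITGAV that activates TGF-beta on epithelia, was at 16.3, 14.8 and 17.5 CPM in CLEC16A KO libraries, against 4.50, 4.22 and 4.55 CPM in WT libraries. It rose 3.65-fold (log2 fold change 1.87, SE 0.14, adjusted p = 1.36e-10). Its exons share 966 bases with the transcript AC092153.1 of the same strand.

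ITGB4, the hemidesmosome chain that pairs with ITGA6, was at 12.2, 11.8 and 13.9 CPM in CLEC16A KO libraries, against 5.59, 4.89 and 2.73 CPM in WT libraries. WT replicate 3 was the lowest of all, and no WT library reached a KO library (log2 fold change 1.52, SE 0.19, adjusted p = 2.08e-06). ITGA2, which with ITGB1 binds collagen and laminin, was at 14.7, 14.1 and 15.2 CPM in CLEC16A KO libraries, against 5.22, 4.92 and 5.16 CPM in WT libraries (log2 fold change 1.53, SE 0.13, adjusted p = 2.53e-09). ITGA2 lies 30.1 kb from ITGA1, a collagen receptor chain of stroma, with no protein-coding gene between them, and ITGA1 was called lower in the same libraries (log2 fold change -0.24, SE 0.07, adjusted p = 0.00819). ITGA6 was at 115, 121 and 131 CPM in CLEC16A KO libraries, against 75.9, 71.0 and 72.8 CPM in WT libraries, a 1.67-fold rise (log2 fold change 0.74, SE 0.07, adjusted p = 5.51e-09).

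With NKX2-2 KO, ITGB6 and ITGA3 passed the test, lower in KO, and ITGA2, ITGA6 and ITGB4 did not. ITGB6 was at 3.13, 4.30 and 2.31 CPM in NKX2-2 KO libraries, against 5.57, 5.41 and 6.10 CPM in WT libraries. The groups did not overlap and the fall was 1.74-fold (log2 fold change -0.80, SE 0.22, adjusted p = 0.0153), a call lost without KO replicate 3 (adjusted p = 0.0513) and without both libraries numbered 3 (adjusted p = 0.0848). ITGA3 was at 93.2, 94.6 and 80.0 CPM in NKX2-2 KO libraries, against 112, 119.6 and 101 CPM in WT libraries, again without overlap (log2 fold change -0.32, SE 0.11, adjusted p = 0.0394). That call ended when KO replicate 2, KO replicate 3, WT replicate 1 or WT replicate 2 was left out (adjusted p of 0.0702 to 0.158), under upper-quartile scaling (adjusted p = 0.0801) and on log2(TPM + 1) in limma (adjusted p = 0.0914). ITGA2 was at 5.72, 7.75 and 5.02 CPM in NKX2-2 KO libraries, against 5.05, 5.51 and 2.54 CPM in WT libraries. ITGB4 was at 2.65, 3.40 and 2.94 CPM in NKX2-2 KO libraries, against 3.08, 4.65 and 3.89 CPM in WT libraries. These chains and ITGA6 had overlapping groups, with log2 fold changes of 0.49 for ITGA2, 0.07 for ITGA6 and -0.36 for ITGB4 (adjusted p = 0.175, 0.638 and 0.236). With a replicate block ITGA2 passed, at adjusted p = 0.0274.

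Marker genes of several cell types were summed to set beside the epithelial chains. The 10 general epithelium markers summed to 3768 to 3917 CPM in CLEC16A KO libraries, against 1994 to 2161 CPM in WT libraries, and 9 of the 10 rose and 0 fell. In the NKX2-2 experiment they summed to 1908 to 2136 CPM in KO and 2435 to 2817 CPM in WT libraries, with 1 of 10 higher and 5 lower. The 10 intestine and liver epithelium markers summed to 12844 to 14044 CPM in CLEC16A KO and 4323 to 4568 CPM in WT libraries (9 rose, 0 fell), and the 12 islet endocrine markers to 15320 to 17548 CPM and 28386 to 31215 CPM (1 rose, 11 fell). CHGA alone made up 85.9% to 87.9% of that islet sum in CLEC16A KO and 84.0% to 85.4% in WT libraries, and the other 11 markers summed to 2126 to 2240 CPM in KO and 4526 to 4547 CPM in WT libraries. With NKX2-2 KO the intestine and liver sum was 7425 to 9188 CPM in KO and 8270.2 to 9602 CPM in WT libraries (1 rose, 5 fell), and the islet sum 1393 to 1520.3 CPM in KO and 4387 to 5016 CPM in WT libraries (2 rose, 8 fell). The 11 duct and basal epithelium markers summed to 686 to 751 CPM in NKX2-2 KO and 727 to 824 CPM in WT libraries (3 of 9 tested rose, 3 fell), and to 919 to 952 CPM in CLEC16A KO and 677 to 703 CPM in WT libraries. Of them 8 of 9 tested rose and 1 fell with CLEC16A KO, with the basal keratins KRT5 and KRT14 at 0 in all 6 libraries. The part of these cell types in the laminin and integrin values was not tested.

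**Figure D3:**
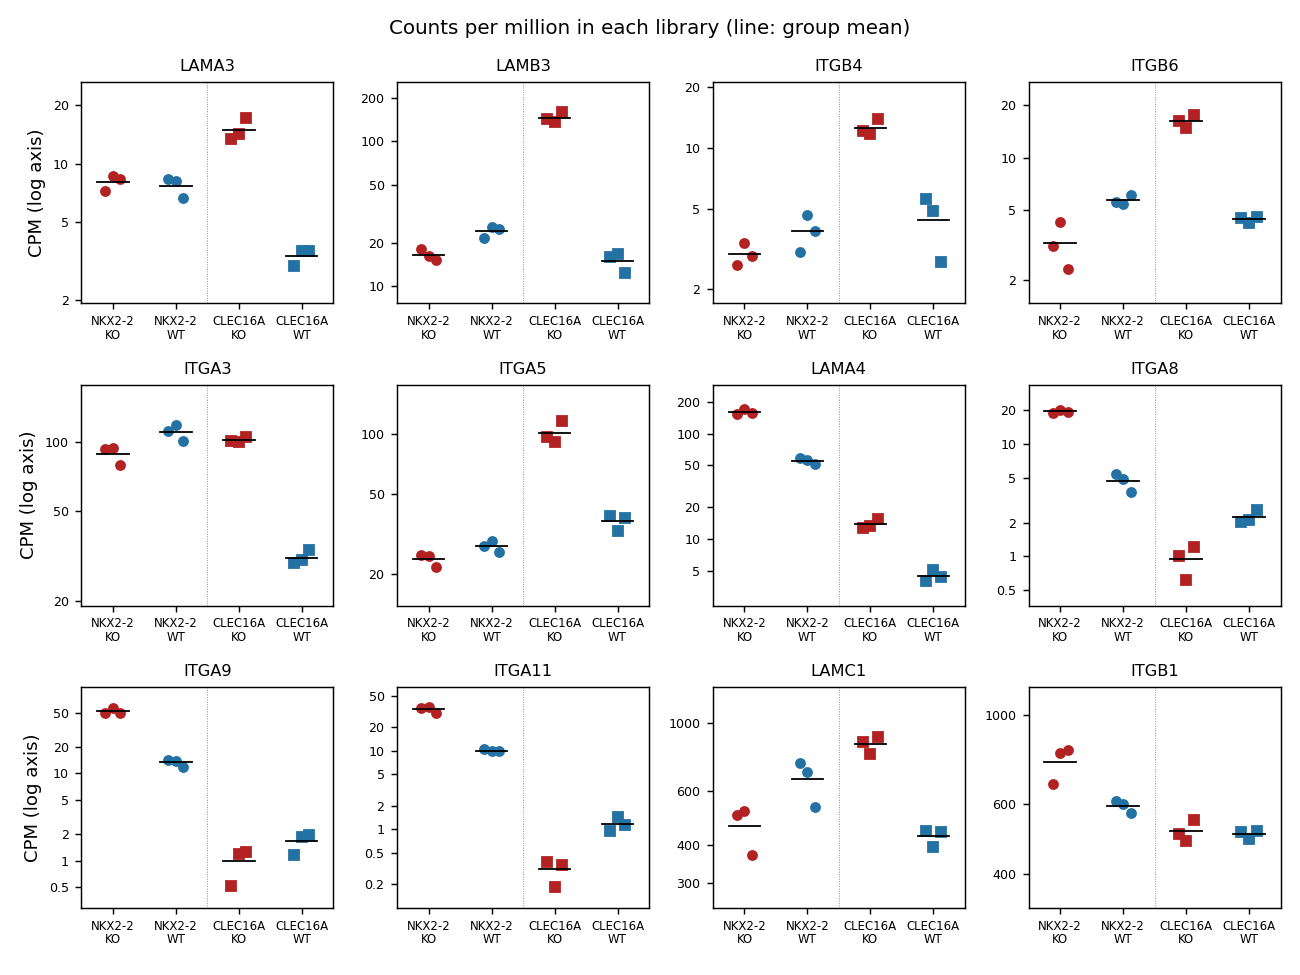
CPM in each library (y axis, log scale) of 12 laminin and integrin genes, with KO libraries in red left of WT libraries in blue, circles for the NKX2-2 and squares for the CLEC16A experiment, and a line at each group mean. LAMB3 and ITGB6 are below WT with NKX2-2 KO and above it with CLEC16A KO, ITGA8 and ITGA11 the reverse, and LAMA4 is above WT in both.

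Among stromal and vascular integrins, ITGA8 (ENSG00000077943.8, chromosome 10, 15513949 to 15720125, minus strand), the receptor chain for nephronectin on mesenchyme, was at 19.1, 20.4 and 19.2 CPM in NKX2-2 KO libraries, against 5.43, 4.90 and 3.73 CPM in WT libraries. The KO libraries were far above the WT libraries, a 4.15-fold rise (log2 fold change 2.05, SE 0.16, adjusted p = 6.33e-07). In the CLEC16A experiment it was at 1.00, 0.621 and 1.22 CPM in CLEC16A KO libraries, against 2.04, 2.11 and 2.58 CPM in WT libraries. The groups did not overlap and the fall was 2.36-fold (log2 fold change -1.24, SE 0.31, adjusted p = 0.00205), a call lost with limma on log2(TPM + 1) (adjusted p = 0.212).

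ITGA9 (ENSG00000144668.12, chromosome 3, 37452115 to 37823514, plus strand), which binds tenascin and VCAM1, was at 49.7, 55.8 and 48.9 CPM in NKX2-2 KO libraries, against 14.3, 14.0 and 11.8 CPM in WT libraries. This was a 3.85-fold rise without overlap (log2 fold change 1.94, SE 0.12, adjusted p = 1.34e-07). Its exons share 535 bases with the antisense gene ITGA9-AS1. In CLEC16A KO libraries it was at 0.517, 1.18 and 1.25 CPM, against 1.15, 1.87 and 1.97 CPM in WT libraries, and the groups overlapped (log2 fold change -0.75, SE 0.36, adjusted p = 0.0952). It passed there in the single fit of all 12 libraries (adjusted p = 0.0250) and without WT replicate 1 (adjusted p = 0.0480). ITGA11 (ENSG00000137809.17, chromosome 15, 68296533 to 68432162, minus strand), a collagen receptor chain of fibroblasts, was at 35.0, 35.6 and 30.3 CPM in NKX2-2 KO libraries, against 10.4, 9.91 and 9.82 CPM in WT libraries. It rose 3.35-fold (log2 fold change 1.74, SE 0.12, adjusted p = 2.92e-07). In the CLEC16A experiment it was near the detection limit, at 0.388, 0.186 and 0.353 CPM in CLEC16A KO libraries, against 0.946, 1.42 and 1.12 CPM in WT libraries, or 12, 6 and 11 counts in KO and 33, 47 and 37 counts in WT libraries (log2 fold change -1.90, SE 0.45, adjusted p = 0.00136).

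ITGA7 (ENSG00000135424.18, chromosome 12, 55684568 to 55716043, minus strand), a laminin receptor chain of muscle, rose in both experiments. It was at 16.6, 15.7 and 14.1 CPM in NKX2-2 KO libraries, against 6.20, 7.33 and 8.07 CPM in WT libraries (log2 fold change 1.11, SE 0.15, adjusted p = 7.85e-05). With CLEC16A KO it was at 11.0, 8.35 and 11.9 CPM in CLEC16A KO libraries, against 7.97, 7.66 and 6.77 CPM in WT libraries (log2 fold change 0.48, SE 0.15, adjusted p = 0.0134). The CLEC16A groups were apart by a narrow margin, and the call there was lost without KO replicate 1, KO replicate 3 or WT replicate 3 (adjusted p of 0.0522 to 0.0728), without both libraries numbered 3 (adjusted p = 0.198) and on log2(TPM + 1) in limma (adjusted p = 0.383).

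ITGA5 (ENSG00000161638.11, chromosome 12, 54395261 to 54419460, minus strand), the fibronectin receptor chain, was at 96.0, 90.5 and 115 CPM in CLEC16A KO libraries, against 39.0, 32.9 and 38.2 CPM in WT libraries. It rose 2.74-fold without overlap (log2 fold change 1.45, SE 0.09, adjusted p = 2.21e-11). With NKX2-2 KO it was at 25.0, 24.7 and 21.7 CPM, against 27.6, 29.1 and 25.8 CPM in WT libraries, lower in every KO library but not past the test (log2 fold change -0.21, SE 0.12, adjusted p = 0.19). ITGB3, the vitronectin receptor chain of platelets and vessels, was at 1.26, 2.17 and 3.21 CPM in CLEC16A KO libraries, against 0.459, 0.272 and 0.516 CPM in WT libraries (log2 fold change 2.40, SE 0.40, adjusted p = 2.83e-05). Exons of ITGB3 share 2266 bases with the gene AC068234.1 on the same strand, so its counts are uncertain. In the NKX2-2 experiment the ITGB3 groups did not overlap, at 4.03, 4.55 and 4.27 CPM in KO and 3.32, 2.22 and 3.05 CPM in WT libraries, with a log2 fold change of 0.58 (adjusted p = 0.0518). It passed under upper-quartile scaling, a stricter count filter, a replicate block and limma on log2(TPM + 1), with adjusted p of 0.0324 to 0.0499.

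ITGA1 and ITGA10 are collagen receptor chains of stroma and cartilage. ITGA1 was at 56.5, 51.4 and 56.7 CPM in CLEC16A KO libraries, against 63.5, 66.4 and 64.6 CPM in WT libraries, a small fall without overlap. Some of its exon bases are shared with PELO, a protein-coding gene that overlaps it. It did not pass with NKX2-2 KO (log2 fold change 0.13, adjusted p = 0.377). ITGA10 was under 1 CPM in every library and higher in each KO library than in each WT library of its experiment, with log2 fold changes of 0.47 with NKX2-2 KO and 0.67 with CLEC16A KO (adjusted p = 0.329 and 0.214).

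Beside the stromal chains, markers of mesenchyme, endothelium and nerve were summed. The 16 mesenchyme markers summed to 7727 to 8820 CPM in NKX2-2 KO libraries, against 3058 to 3350 CPM in WT libraries, with 15 higher and 0 lower. In the CLEC16A experiment they summed to 285 to 323 CPM in KO and 433 to 466 CPM in WT libraries, with 0 of 15 tested higher and 9 lower. The 11 endothelium markers summed to 71.4 to 79.3 CPM in NKX2-2 KO and 23.5 to 29.3 CPM in WT libraries (5 of 7 tested rose, 1 fell), and to 11.4 to 14.0 CPM in CLEC16A KO and 23.0 to 24.5 CPM in WT libraries (1 of 5 rose, 3 fell). The 8 neural and glial markers summed to 493 to 643 CPM in NKX2-2 KO and 430 to 518 CPM in WT libraries (2 of 5 tested rose, 1 fell), with FOXD3 at 0 in all 6, and to 174 to 203 CPM in CLEC16A KO and 397 to 451 CPM in WT libraries (0 of 6 rose, 5 fell). STMN2 made up most of the neural and glial sums. Its means were 554 and 467 CPM in NKX2-2 KO and WT libraries, and 186 and 424 CPM in CLEC16A KO and WT libraries. No mesenchyme or endothelium marker was at 0 in all libraries of an experiment. LAMA4, ITGA5, ITGA7 and ITGB3 rose with CLEC16A KO, where the mesenchyme sum was lower. The part of these cell types was not tested.

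Of the chains shared by many cell types, ITGB1 (ENSG00000150093.19, chromosome 10, 32900319 to 33005792, minus strand), the partner of most laminin and collagen receptor alpha chains, held 90.0% to 92.5% of beta chain TPM in NKX2-2 KO and 88.3% to 89.4% in WT libraries, and 80.3% to 80.5% in CLEC16A KO and 89.7% to 90.8% in WT libraries. It was at 675, 804 and 820.2 CPM in NKX2-2 KO libraries, against 609, 601 and 571 CPM in WT libraries. The groups did not overlap (log2 fold change 0.37, SE 0.11, adjusted p = 0.0222), though the call was lost without KO replicate 2 or any single WT library (adjusted p of 0.0527 to 0.106). In the CLEC16A experiment it was at 506, 483 and 547 CPM in CLEC16A KO libraries, against 511, 491 and 512 CPM in WT libraries, with overlap (log2 fold change 0.02, SE 0.06, adjusted p = 0.817, 95% interval -0.11 to 0.15). So its lower share there stood beside a level that did not pass the test and beside rises of other beta chains.

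ITGAV, the alpha chain that binds the RGD motif with several beta chains, was at 130.5, 137 and 149 CPM in CLEC16A KO libraries, against 84.3, 89.0 and 80.0 CPM in WT libraries, a 1.65-fold rise without overlap (log2 fold change 0.72, SE 0.07, adjusted p = 1.13e-08). Its beta partners rose too. ITGB8 was at 75.8, 80.8 and 91.3 CPM in CLEC16A KO libraries, against 35.7, 35.5 and 34.3 CPM in WT libraries (log2 fold change 1.23, SE 0.08, adjusted p = 1.31e-11), and ITGB5 at 78.6, 75.5 and 79.5 CPM in CLEC16A KO libraries, against 45.6, 42.7 and 40.9 CPM in WT libraries (log2 fold change 0.85, SE 0.07, adjusted p = 1.4e-09). With NKX2-2 KO ITGAV was at 91.1, 102 and 84.7 CPM in KO and 99.7, 99.4 and 82.7 CPM in WT libraries, and ITGB8 at 47.3, 49.0 and 40.8 CPM in KO and 49.4, 44.4 and 35.4 CPM in WT libraries. The groups overlapped for these chains and for ITGB5. The log2 fold changes were -0.02 for ITGAV, -0.08 for ITGB5 and 0.08 for ITGB8 (adjusted p = 0.895, 0.604 and 0.665). Counting ITGB3 and ITGB6, the beta chains known to pair with ITGAV other than ITGB1 were each called higher with CLEC16A KO.

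Of the 9 leukocyte and platelet chains, 5 were tested with NKX2-2 KO (1 rose, 1 fell) and 7 with CLEC16A KO (1 rose, 2 fell), shares near the 33.4% and 45.0% of all genes called. ITGA4, which binds VCAM1 and fibronectin, was at 7.08, 6.89 and 6.23 CPM in CLEC16A KO libraries, against 11.9, 12.7 and 15.9 CPM in WT libraries, a 2.01-fold fall without overlap (log2 fold change -1.004, SE 0.14, adjusted p = 4.22e-06). With NKX2-2 KO it was at 24.4, 29.96 and 23.7 CPM, against 26.3, 26.5 and 21.6 CPM in WT libraries, with overlap, and its log2 fold change was 0.07 (95% interval -0.22 to 0.36). ITGAE, the E-cadherin receptor chain of lymphocytes in epithelia, was at 20.05, 21.71 and 28.04 CPM in NKX2-2 KO libraries, against 12.74, 13.34 and 18.57 CPM in WT libraries. It was at 10.54, 12.70 and 9.89 CPM in CLEC16A KO libraries, against 17.98, 16.45 and 15.97 CPM in WT libraries. Neither pair of groups overlapped: it rose with NKX2-2 KO (log2 fold change 0.65, SE 0.17, adjusted p = 0.0101) and fell with CLEC16A KO (log2 fold change -0.61, SE 0.12, adjusted p = 0.000326). The first of these calls was lost without WT replicate 1 or 2 (adjusted p of 0.0633 and 0.0520). Exons of ITGAE share 427 bases with HASPIN on the other strand, whose reads cannot be separated.

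ITGAL and ITGB2, which form a leukocyte receptor for ICAM1, were scarce. Exons of ITGAL share 415 and 204 bases with the antisense genes AC116348.3 and AC116348.2. Those of ITGB2 share 303 bases with the antisense gene ITGB2-AS1. As the use of strand is not given, reads there cannot be assigned. ITGAL was at 0.602, 0.600 and 1.44 CPM in NKX2-2 KO libraries, against 2.21, 2.43 and 2.48 CPM in WT libraries, or 10, 12 and 25 counts in KO and 46, 48 and 44 in WT libraries (log2 fold change -1.43, SE 0.35, adjusted p = 0.00679), and in the CLEC16A experiment its groups overlapped (log2 fold change -0.25, adjusted p = 0.373). ITGB2 was at 1.45, 1.55 and 3.72 CPM in CLEC16A KO libraries, against 0.660, 0.966 and 0.304 CPM in WT libraries (log2 fold change 1.80, SE 0.42, adjusted p = 0.00162), a call lost without both libraries numbered 3 (adjusted p = 0.112). ITGB2 had overlapping groups with NKX2-2 KO (log2 fold change -0.10, adjusted p = 0.854). ITGA2B, the platelet chain, had overlapping groups in both experiments, at 3.59, 4.81 and 5.75 CPM in CLEC16A KO and 4.79, 5.46 and 4.04 CPM in WT libraries. ITGAD and ITGAM were tested only in the CLEC16A experiment (log2 fold changes -0.38 and 0.39, adjusted p = 0.398 and 0.407), and their groups overlapped there. With NKX2-2 KO and its WT, ITGAD was at 3, 3 and 4 counts in KO and 20, 26 and 8 counts in WT libraries. ITGAX and ITGB7 were tested in neither: they reached at most 10 and 6 counts in a library, and ITGB7 was at 0 in 10 of the 12. The 10 blood markers summed to 297 to 311 CPM in NKX2-2 KO and 288 to 299 CPM in WT libraries (1 of 2 tested rose, 0 fell). In the CLEC16A experiment they summed to 72.5 to 109 CPM in KO and 126 to 167 CPM in WT libraries (0 of 1 tested rose, 1 fell). The fetal globin HBG1 was at 0 in all 12 libraries. LYZ made up nearly all of these sums, with means of 299.9 and 293 CPM in NKX2-2 KO and WT libraries. Its means were 91.9 and 152 CPM in CLEC16A KO and WT libraries.

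Whether the effects themselves differed was tested as the NKX2-2 effect minus the CLEC16A effect, an interaction over the 12 libraries. Of 35 of these genes tested, 9 had a higher and 17 a lower effect in the NKX2-2 experiment, so that 74.3% were called, where 38.2% of all 20494 genes tested were called, 17.8% higher and 20.4% lower. Among the epithelial chains 7 of 8 were lower and 0 higher, with a median difference of -1.95, and among the stromal chains 5 of 10 were higher and 2 lower, with a median of 0.51. The median over all genes was 0.04. Upper-quartile scaling shifted that median by 0.12 and made 57.2% of all calls higher, where 46.6% were higher otherwise, and still called 9 of these genes higher and 17 lower. The difference was -3.82 (SE 0.17, adjusted p = 9.37e-14) for LAMB3 and -2.66 (SE 0.25, adjusted p = 1.68e-08) for ITGB6. It was 3.65 (SE 0.30, adjusted p = 1.75e-09) for ITGA11, 3.31 (SE 0.29, adjusted p = 5.21e-09) for ITGA8 and 2.70 (SE 0.30, adjusted p = 1.8e-07) for ITGA9. LAMA5 was the epithelial chain that did not pass, at -0.24 (SE 0.20, adjusted p = 0.392).

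Of the 32 genes tested in both experiments, 9 were called in both, 2 in the same and 7 in opposite directions, where 20.6% of the 16975 genes tested in both were called in both, 8.72% in the same and 11.9% in opposite directions. LAMA4 and ITGA7 rose in both. ITGA8, ITGA11 and ITGAE rose with NKX2-2 KO and fell with CLEC16A KO. LAMB3, LAMC1, ITGA3 and ITGB6 fell with NKX2-2 KO and rose with CLEC16A KO. The experiments share no library, and each effect was formed against its own WT.

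**Figure D4:**
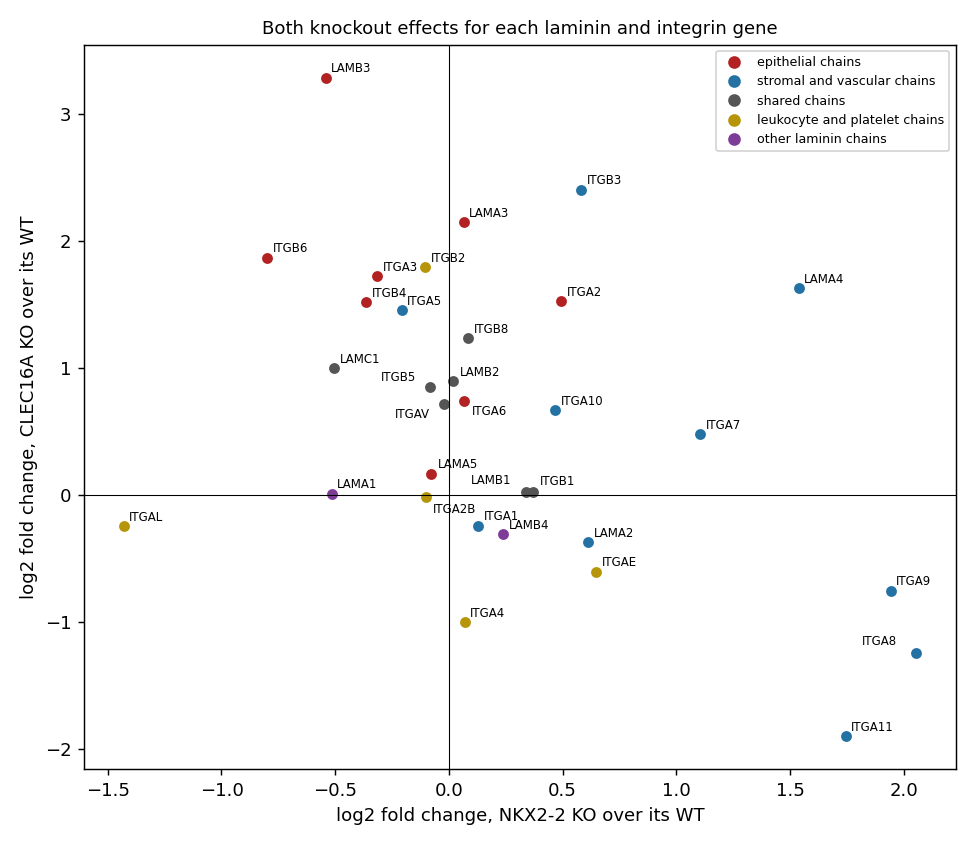
Log2 fold change of KO over WT in the NKX2-2 experiment (x axis) and in the CLEC16A experiment (y axis) for the 32 laminin and integrin genes tested in both, coloured by chain class. Epithelial chains lie in the upper part, with LAMB3 at -0.54 and 3.29, ITGA8, ITGA9 and ITGA11 lie at the lower right, and LAMA4 stands apart at 1.54 and 1.63.

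The partners of laminins in the basement membrane were read from a list of 23 genes, chosen with earlier results of these data known. With NKX2-2 KO 10 of 22 tested rose and 6 fell, and with CLEC16A KO 8 of 23 rose and 11 fell. For this and the lists below, 16.6% of all genes rose and 16.8% fell with NKX2-2 KO, and 23.7% rose and 21.3% fell with CLEC16A KO. NPNT, which encodes nephronectin, the ligand of ITGA8, rose with NKX2-2 KO (229.7 CPM in KO and 78.5 CPM in WT libraries, log2 fold change 1.55, SE 0.11, adjusted p = 3.15e-07), as did SPARC, which binds collagen, and COL4A1, a chain of the collagen IV network (log2 fold changes 1.47 and 0.95), while SMOC1 fell (-1.03). With CLEC16A KO COL4A1 fell (17.5 CPM in KO and 53.6 CPM in WT libraries, log2 fold change -1.61, SE 0.09, adjusted p = 1.43e-12), as did COL4A2 (log2 fold change -1.22) and COL15A1 (0.0857 CPM in KO and 5.41 CPM in WT libraries), and NID1, the nidogen that links laminin to collagen IV, rose (128 CPM in KO and 57.8 CPM in WT libraries, log2 fold change 1.15, SE 0.07, adjusted p = 4.73e-12). COL4A1 thus moved opposite to LAMC1 in each experiment. NPNT and SPARC rose with CLEC16A KO too (log2 fold changes 0.53 and 0.77, adjusted p = 0.00024 and 2.11e-07), where ITGA8 fell. NID1 rose with NKX2-2 KO too (0.55, adjusted p = 0.0223), and SMOC1 also fell with CLEC16A KO (-0.41). COL4A2 and COL15A1, like COL4A1, rose with NKX2-2 KO (0.81 and 1.09). The list's median log2 fold change was 0.41 with NKX2-2 KO and -0.20 with CLEC16A KO.

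At the cell membrane and inside it, the 9 listed hemidesmosome and tetraspanin partners held 5 of 7 tested genes that rose and 1 that fell with CLEC16A KO, and 0 of 7 that rose and 1 that fell with NKX2-2 KO. COL17A1, a transmembrane collagen of hemidesmosomes, rose with CLEC16A KO (15.9 CPM in KO and 2.92 CPM in WT libraries, log2 fold change 2.45, SE 0.14, adjusted p = 3.85e-12), as did PLEC, which ties ITGB4 to keratin, and the tetraspanin CD9, a partner of several integrins (log2 fold changes 0.79 and 1.99), while CD81 fell (-0.47). CD151, a tetraspanin partner of ITGA3 and ITGA6, fell with NKX2-2 KO (195 CPM in KO and 295 CPM in WT libraries, log2 fold change -0.60, SE 0.11, adjusted p = 0.0012). Of the integrin adaptors and signalling genes, 17 of 39 tested rose and 3 fell with CLEC16A KO, led by TNS1, CIB1 and PTK2B (log2 fold changes 2.15, 1.44 and 1.21). With NKX2-2 KO 6 of 37 rose and 8 fell, among them KANK2 and FERMT2, an activator of integrins, which rose (1.17 and 1.09), and PXN, the adaptor paxillin, which fell (-1.08). The share of these adaptors called in either direction was near that of all genes in both experiments (33.4% with NKX2-2 KO and 45.0% with CLEC16A KO). By direction, the share that rose with CLEC16A KO was above the 23.7% of all genes, and the share that fell was below the 21.3%. The list was not tested as a set.

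The remaining integrin ligands and laminin receptors were counted in the same way. Of the RGD and other integrin ligands, 16 of 26 tested rose and 5 fell with NKX2-2 KO, and 12 of 26 rose and 7 fell with CLEC16A KO (median log2 fold changes 0.67 and 0.11). SPP1 (osteopontin) rose in both (log2 fold changes 2.73 with NKX2-2 KO and 2.82 with CLEC16A KO). POSTN (periostin) rose with NKX2-2 KO and fell with CLEC16A KO (1.78 and -2.15). ICAM1, the ligand of the ITGAL and ITGB2 pair, fell with NKX2-2 KO and rose with CLEC16A KO (-2.59 and 2.85), and FBLN5 and the ITGAV ligand VTN (vitronectin) rose with CLEC16A KO (2.77 and 1.06). Among 14 non-integrin laminin receptors and their glycosylation genes, 3 rose and 3 fell with NKX2-2 KO and 5 rose and 5 fell with CLEC16A KO. Of all genes tested, 33.4% and 45.0% were called in either direction. These genes were not tested as a set. SDC4, a syndecan, fell in the first and rose in the second (-0.62 and 1.50), and SDC2 rose with CLEC16A KO (1.27).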

How the data were processed

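Reads were processed with fastp 0.22.0, HISAT2 2.2.1 and StringTie 2.1.7 on hg38, per the submitters' processing notes. Which program counted reads, with which annotation and whether by strand, is not given in the sources used here. The authors deposited raw counts per Ensembl gene, and TPM values per gene, in 1 table of each for either experiment. From the counts, 45 rows of Y pseudoautosomal copies were left out. Counts were scaled by TMM and tested with edgeR 4.0.16 (robust quasi-likelihood, filterByExpr, R 4.3.3), with Benjamini-Hochberg adjustment over all genes tested, 1 fit per experiment and 1 fit of all 12 libraries for the difference of effects. All p-values with no other tool named are from edgeR, and intervals are 95%. Alternatives were DESeq2 1.42.0, limma 3.58.1 on log2 of TPM plus 1 or 0.1, other scalings and filters, no mitochondrial genes, a replicate block and leaving out each library. Leaving out both libraries numbered 3 was added after seeing the data. The tests were run on simulated data first. Of 38 genes the member rule finds, 1 is not reported here, nor is 1 gene of a pathway list. The member rule, gene lists and markers were chosen with earlier results of these data known. Values per library are given for genes called at least 2-fold with a mean of at least 5 CPM in a group, for LAMC1, LAMB1, ITGB1 and ITGAV, and for others where a call depends on them. From each pathway list the 2 to 4 genes with the smallest p are named, and a few of those again in the other experiment.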

Additional observations from a re-analysis of the deposited data

Results flagged for a closer look

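For 26 of the 35 genes tested, the NKX2-2 effect minus the CLEC16A effect (log2, KO over WT) passed the interaction test at an adjusted p under 0.05 (edgeR), where 38.2% of all genes tested did. Among epithelial chains, where LAMA5 did not pass, it was -3.82 for LAMB3, -2.66 for ITGB6, -2.07 for LAMA3, -2.03 for ITGA3, -1.87 for ITGB4, -1.02 for ITGA2 and -0.66 for ITGA6. Among stromal and vascular chains it was 3.65 for ITGA11, 3.31 for ITGA8, 2.70 for ITGA9, 0.64 for ITGA7 and 0.38 for ITGA1, and -1.81 for ITGB3 and -1.65 for ITGA5. The shared chains had differences of -1.49 for LAMC1, -1.14 for ITGB8, -0.93 for ITGB5, -0.87 for LAMB2, -0.73 for ITGAV, 0.36 for ITGB1 and 0.32 for LAMB1. Among leukocyte and platelet chains they were 1.26 for ITGAE, 1.08 for ITGA4, -1.89 for ITGB2, -1.88 for ITGAD and -1.18 for ITGAL. Of these, 9 (ITGA1, ITGA2, ITGA7, ITGAD, ITGAL, ITGB1, ITGB2, ITGB3 and LAMB1) missed the threshold under at least 1 alternative. On log2(TPM + 1) in limma the difference was -0.057 for ITGAL (adjusted p = 0.846) and -0.37 for ITGB3 (adjusted p = 0.187). Without both libraries numbered 3 it was -0.91 for ITGB2 (adjusted p = 0.320), and for LAMB1 the call was lost in 11 alternatives. The value for ITGAD rests on at most 4 counts in any NKX2-2 KO library. The experiments were sequenced to different depths and differ in their WT libraries too, so experiment and knockout cannot be told apart in these differences.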

How the results depend on the processing

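Of 23 laminin and integrin genes called with CLEC16A KO, 18 were called under every alternative run. The other 5 (ITGA11, ITGA7, ITGA8, ITGB2 and LAMA5) missed the threshold at least once, and LAMA5 turned lower in limma, by a log2 value of -0.11 on log2(TPM + 1), filtered or not, and of -0.12 on log2(TPM + 0.1). Of 14 called with NKX2-2 KO, 5 were called throughout and 9 (ITGA3, ITGAE, ITGAL, ITGB1, ITGB6, LAMB1, LAMB3, LAMC1 and LAMC3) missed it at least once, and 17 of 26 were for the difference, where ITGAD turned to 0.073 on log2(TPM + 1) with a filter and to 0.073 without one. Limma on log2(TPM + 1) without a filter called 1624 genes higher and 1623 lower with NKX2-2 KO, against 2888 and 2936 in edgeR, and 5 of these genes higher, against 9. For NKX2-2 KO, 2 of these genes were lower on log2(TPM + 1), 2 on log2(TPM + 0.1) and 0 without a filter (6 at an unadjusted p under 0.05), against 5 in edgeR and 6 in DESeq2. Leaving out single libraries gave 3 to 7 lower, with 3 without WT replicate 1 or WT replicate 2. With CLEC16A KO limma on log2(TPM + 1), on log2(TPM + 0.1) and without a filter called 3135, 3052 and 2841 genes higher, against 4732, and 4752, 4614 and 4016 lower, against 4253, and 3, 3 and 3 of these genes lower, against 5. Leaving out single libraries gave 5 to 9 genes of the family with a higher difference, against 9, with 5 without NKX2-2 KO replicate 2 or CLEC16A KO replicate 2. The cause was not tested in any of these. Deviations of same-numbered KO and WT libraries had correlations of 0.109, 0.025 and 0.321 in the NKX2-2 and 0.011, 0.011 and -0.030 in the CLEC16A experiment. In the NKX2-2 experiment the libraries numbered 3 thus shared a deviation. Differently numbered pairs with a library numbered 3 were at -0.243 to -0.107 there, and KO 1 with WT 2 was at 0.176. The titles do not say that equal numbers mark pairs. The main fits therefore held no replicate term and did not remove what the libraries numbered 3 shared. A replicate block called 11 of the family higher and 6 lower with NKX2-2 KO, 17 and 5 with CLEC16A KO, and 9 and 18 for the difference. Under it 46.1% of all genes were called with NKX2-2 KO (33.4% without it) and 43.9% with CLEC16A KO (45.0% without it). Upper-quartile scaling made 43.2% of all calls higher with CLEC16A KO and 58.4% with NKX2-2 KO, where 52.7% and 49.6% were otherwise. At these depths ITGAX and ITGB7 did not pass the count filter in either experiment, ITGAD and ITGAM did not in the NKX2-2 libraries, and LAMC3 did not in the CLEC16A libraries, which are the deeper ones.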
